A study of Mus musculus with 62 samples.

Results

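Tnnt3, Tnni2, Tnni1, Mylpf, Mybph and Myom2 encode the skeletal troponin T and troponin I proteins, the fast skeletal regulatory myosin light chain and a pair of thick-filament accessory proteins. They were chosen by name, and 6 of the 10476 gene names in the deposited transcript table belong to them, with 25 of its 23877 transcripts. All 23662 transcripts that matched the GENCODE M21 annotation lie on the plus strand. A gene's absence from the table therefore says nothing about its expression. Library totals and shares of transcripts called cover only the transcripts listed. Each gene was followed through 1 transcript, the one with the highest mean count in the C2C12 libraries. The genes were compared by mRNA abundance (RNA-seq), ribosome footprint abundance (Ribo-seq) and translation efficiency (TE, the change of footprints relative to the change of mRNA).

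The question of the design is what the muscle-specific ribosomal protein RPL3L does to translation when it is supplied to cells that lack it or removed from a heart that uses it. C2C12 is a mouse myoblast line. Cells labelled empty (control, from here on) received the empty retrovirus, RPL3 OE cells received mouse RPL3, and RPL3L OE cells received mouse RPL3L, with n = 3 libraries of each kind per assay. All 3 were kept at low confluence after puromycin selection as infected populations, so all carry a vector, and none was placed in differentiation medium for sequencing. The contrast is the whole heart of WT and Rpl3l KO (Rpl3l-/-) mice of the C57BL/6J strain at 10 weeks of age, n = 4 libraries of each genotype per assay, where the KO carries a germline CRISPR-Cas9 deletion of exon 2 in every cell type. Each OE line differs from the control in an overexpressed protein as well as in which paralog it is, and the 3 C2C12 comparisons share their samples.

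In the sarcomere, troponin T anchors the troponin complex to tropomyosin on the thin filament, troponin I blocks the interaction of actin with myosin, and troponin C releases that block when it binds calcium. Skeletal muscle has fast and slow forms of these proteins, whereas the adult heart uses cardiac troponin T (Tnnt2) and cardiac troponin I (Tnni3), and slow skeletal troponin I is the form of the fetal heart. The regulatory myosin light chain wraps the neck of the myosin head, MyBP-H is a relative of myosin-binding protein C in the thick filament, and M-protein (Myom2) cross-links thick filaments at the M-band. In cultured myoblasts, most of these genes are switched on strongly only when the cells exit the cell cycle and fuse.

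The labels were first checked with Rpl3l itself. Its mRNA was at 458 ± 63.8 CPM (counts per 1000000 of the library total; mean ± s.d., n = 4) in WT heart and 29.8 ± 5.35 CPM in Rpl3l-/- heart, and at 0.363 ± 0.202 CPM in control, 0.402 ± 0.367 CPM in RPL3 OE and 2027 ± 29.0 CPM in RPL3L OE cells (n = 3). Library totals ran from 7647102 to 29746110 counts (C2C12 RNA-seq), 3167026 to 6093268 (C2C12 Ribo-seq), 3594696 to 22425296 (heart RNA-seq) and 1606700 to 3192090 (heart Ribo-seq). RNA-seq depth differed between the groups compared. The median total was 4789635.5 counts in WT and 15397962 in Rpl3l-/- heart, and 15742861 in control, 8542738 in RPL3 OE and 8725989 in RPL3L OE cells. Among the cell type markers, the heart was high in cardiomyocyte genes (32417 to 38831 CPM summed over 4 genes in RNA-seq, against 223 to 297 CPM in C2C12, where Nppa and Pln were at 0 counts in every library). The C2C12 cells carried the myoblast markers Myod1, Des and Cdh15 (315 to 579 CPM summed) and very little of 5 differentiated myotube markers (5.14 to 8.07 CPM summed). Des does not set them apart from the heart, with 1709 ± 95.7 CPM in WT heart against 256 ± 2.88 CPM in control cells. Myod1 and Cdh15 were at 0 counts in every heart RNA-seq library. Some heart libraries stood apart. Bpifa1, a secretory protein of the airway epithelium picked after its values were seen, had 9432, 0, 24109 and 2 counts in the 4 Rpl3l-/- RNA-seq libraries in order of number, but 2783, 4538, 0 and 2 counts in the 4 Rpl3l-/- Ribo-seq libraries. In WT hearts it had 1, 1268, 9 and 1159 counts in RNA-seq and 4, 1767, 33 and 384 in Ribo-seq. The WT numbers match between assays, and the Rpl3l-/- libraries numbered 2 and 3 go against each other. The comparisons of genotypes are therefore also given without the Rpl3l-/- libraries numbered 2 and 3.

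The transcripts followed, with GENCODE M21 coordinates on GRCm38 and all on the plus strand, were as follows. Tnnt3 (ENSMUST00000074187.12, 15 exons) lies at chr7:142498836-142516008 and Tnni2 (ENSMUST00000149529.7, 7 exons) at chr7:142442330-142444368, so that 54468 bases separate the end of the troponin I transcript from the start of the troponin T transcript. Mylpf (ENSMUST00000032910.12, 7 exons) lies on the same chromosome at chr7:127211608-127214298. Tnni1 (ENSMUST00000148201.7, 9 exons) is at chr1:135799833-135810989, Mybph (ENSMUST00000191577.1, 10 exons) at chr1:134193457-134201232 and Myom2 (ENSMUST00000033842.3, 37 exons) at chr8:15057653-15133541. All 6 are protein coding. Mybph shares 1162 exonic bases with Adora1, which is read from the opposite strand. Since the strand setting of the counting is not given in the sources used here, reads of those bases cannot be assigned to either gene with certainty. Isoforms could not be told apart either: the 13 Tnnt3 transcripts in the table had mean C2C12 counts between 48.4 and 48.6. They differed by at most 3 counts in any C2C12 library. How reads were assigned among transcripts of a gene was not tested.

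Since the reads were mapped with multiple mappings allowed and muscle proteins come in near-identical families, the member transcripts were compared with all other mouse transcripts. Myh3, the embryonic myosin heavy chain, shows the concern: it was at 0 counts in all heart RNA-seq libraries and at 142 to 315 CPM in heart Ribo-seq. None of the 28-base windows (the shortest footprint length used by the study for its codon analysis) of any member occurred in a transcript of another gene, and of 20-base windows 0 were shared for Tnnt3, 4 for Tnni2, 9 for Tnni1, 6 for Mylpf, 4 for Mybph and 5 for Myom2. Matches with mismatches were not searched. The longest stretches shared by the coding sequences of some pairs of related genes are printed here in capitals, with the flanking coding bases in lower case. The pairs were chosen by name and not by a search for the closest gene. Mylpf, for example, also shared 20-base windows with Myl10. The printed stretches are 22 bases between fast and slow skeletal troponin I and 17 bases between fast skeletal and cardiac troponin T. Between the fast skeletal and cardiac regulatory light chains (Myl2) the stretch is 20 bases.
Tnni2, coding bases 359 to 420: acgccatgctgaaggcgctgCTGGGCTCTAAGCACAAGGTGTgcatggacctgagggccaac
Tnni1, coding bases 362 to 423: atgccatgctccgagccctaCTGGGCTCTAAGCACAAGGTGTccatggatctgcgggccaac
Tnnt3, coding bases 113 to 169: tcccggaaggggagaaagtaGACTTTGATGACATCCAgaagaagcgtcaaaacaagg
Tnnt2, coding bases 257 to 313: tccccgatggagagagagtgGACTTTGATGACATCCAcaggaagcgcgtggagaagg
Mylpf, coding bases 56 to 115: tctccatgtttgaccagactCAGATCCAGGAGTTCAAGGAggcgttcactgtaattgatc
Myl2, coding bases 53 to 112: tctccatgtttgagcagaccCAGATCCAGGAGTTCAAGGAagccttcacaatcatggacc

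In control C2C12 cells, the members spanned a wide range of levels. Per kilobase of transcript, Mylpf was the most abundant mRNA (23.1 ± 1.49 CPM per kb, n = 3), followed by Tnni2 (9.91 ± 0.894), Tnnt3 (6.24 ± 0.157) and Tnni1 (3.94 ± 0.497), and each of these neighbours was separated in all 3 cultures. Mybph (0.389 ± 0.128) and Myom2 (0.317 ± 0.0472) were lowest and overlapped each other. RPL3L OE cells had the same order of the first 4, and in RPL3 OE cells Tnnt3 (3.32 ± 1.00) was listed after Tnni1 (4.84 ± 0.546), with overlapping cultures. Footprints per kilobase of coding sequence in control cells gave Mylpf 55.8, Tnni1 22.4, Tnni2 15.2, Tnnt3 5.66, Mybph 3.02 and Myom2 0.422 CPM per kb, with no overlap between neighbours. Slow troponin I therefore stood after both fast troponins in mRNA and before them in footprints.

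**Figure D1:**
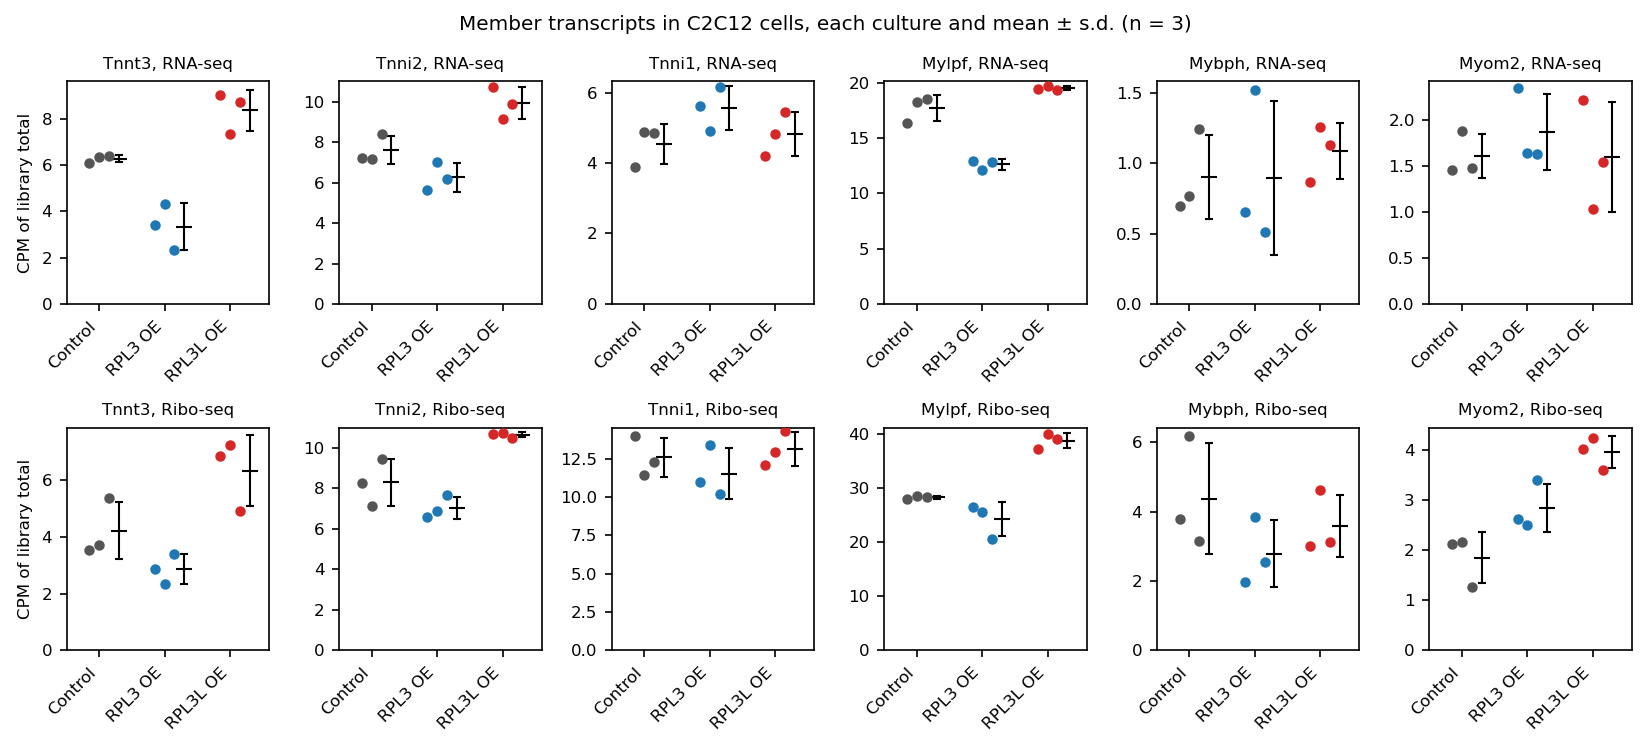
Level of each member in CPM of the library total (linear axes from 0) in control, RPL3 OE and RPL3L OE C2C12 cells, RNA-seq in the upper row and Ribo-seq in the lower row. Points are single cultures, and the bar beside them is the mean ± s.d. of n = 3; Tnnt3, Tnni2 and Mylpf are lowest in RPL3 OE and highest in RPL3L OE in both rows by mean, from 3.35 to 8.37 CPM for Tnnt3 mRNA.

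Fast skeletal troponin T was the member that moved most between the overexpressing lines. Tnnt3 mRNA was at 6.10, 6.35 and 6.39 CPM in the 3 control cultures, at 3.40, 4.33 and 2.31 CPM in RPL3 OE and at 9.02, 7.33 and 8.75 CPM in RPL3L OE. The groups did not overlap, with RPL3 OE below and RPL3L OE above the control. By edgeR's quasi-likelihood test over all transcripts, Tnnt3 mRNA fell in RPL3 OE against the control (log2 fold change -0.94, SE 0.20, 95% CI -1.33 to -0.55, adjusted p = 0.000220). Its rise in RPL3L OE against the control did not pass (0.41, SE 0.16, adjusted p = 0.116). The direct comparison of RPL3L OE with RPL3 OE gave 1.35 (SE 0.21, adjusted p = 3.39e-07), and this passed in all 9 fits that left out 1 library (1.09 to 1.58). In bulk cultures, fewer expressing cells and less RNA per cell cannot be told apart.

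Tnnt3 footprints were sparse, with 12 to 39 counts per library, and followed the mRNA. They were at 3.55, 3.72 and 5.37 CPM in control, 2.85, 2.34 and 3.40 CPM in RPL3 OE and 6.86, 7.22 and 4.92 CPM in RPL3L OE cells. The RPL3L OE and control cultures overlapped through control replicate 3, and the OE lines did not overlap each other. RPL3L OE was higher than RPL3 OE by 1.16 (SE 0.28, 95% CI 0.60 to 1.72, adjusted p = 0.00220). Neither line passed against the control, with -0.60 (adjusted p = 0.269) for RPL3 OE and 0.56 (adjusted p = 0.194) for RPL3L OE.

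Fast skeletal troponin I changed in the same direction by a smaller amount. Tnni2 mRNA was at 7.24, 7.19 and 8.40 CPM in control, 5.62, 7.02 and 6.17 CPM in RPL3 OE and 10.8, 9.17 and 9.88 CPM in RPL3L OE. Again no group overlapped another. Only the comparison of the OE lines with each other passed among the 3 (0.64, SE 0.17, adjusted p = 0.00197), while RPL3L OE against control gave 0.36 (adjusted p = 0.115) and RPL3 OE against control -0.29 (adjusted p = 0.227). Tnni2 footprints were at 8.28, 7.13 and 9.47 CPM in control, 6.58, 6.86 and 7.65 CPM in RPL3 OE and 10.7, 10.7 and 10.5 CPM in RPL3L OE. RPL3L OE cultures lay above both other groups, and RPL3 OE overlapped the control. The difference between the OE lines was 0.60 (SE 0.18, adjusted p = 0.0163). It no longer passed with DESeq2 (adjusted p = 0.124) or without RPL3 OE replicate 1 (0.0687), RPL3 OE replicate 2 (0.0759) or RPL3L OE replicate 2 (0.0514).

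Slow skeletal troponin I did not pass in any C2C12 comparison. Tnni1 mRNA was at 3.87, 4.89 and 4.84 CPM in control, 5.62, 4.92 and 6.17 CPM in RPL3 OE and 4.20, 4.81 and 5.46 CPM in RPL3L OE cells. RPL3 OE was the highest group by mean and lay above the control in all cultures, the opposite placement to the fast forms. The fitted differences were 0.31 for RPL3 OE over control (95% CI -0.07 to 0.68, adjusted p = 0.294) and -0.22 for RPL3L OE over RPL3 OE (95% CI -0.64 to 0.19, adjusted p = 0.463). Its footprints, at 10.2 to 14.3 CPM, overlapped among all 3 groups. The interval of RPL3L OE over control in footprints was -0.31 to 0.34.

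Mylpf, the fast skeletal regulatory light chain, was the best-measured member in these cells, with 73 to 550 counts per library. Its mRNA was at 16.4, 18.2 and 18.5 CPM in control, 12.9, 12.1 and 12.9 CPM in RPL3 OE and 19.4, 19.7 and 19.4 CPM in RPL3L OE. The cultures did not overlap between groups, and RPL3 OE stood farthest from the others. Mylpf mRNA fell in RPL3 OE against control (-0.48, SE 0.11, adjusted p = 0.000456) and was higher in RPL3L OE than in RPL3 OE (0.61, SE 0.12, adjusted p = 2.44e-05), while RPL3L OE against control did not pass (0.13, 95% CI -0.07 to 0.32, adjusted p = 0.491). Its footprints were at 27.9, 28.5 and 28.4 CPM in control, 26.5, 25.6 and 20.7 CPM in RPL3 OE and 37.3, 40.0 and 39.1 CPM in RPL3L OE. The order of the groups was that of the mRNA, again without overlap. RPL3L OE footprints rose against the control (0.42, SE 0.10, 95% CI 0.23 to 0.62, adjusted p = 0.00321) and were higher than those of RPL3 OE (0.65, SE 0.09, adjusted p = 2.39e-06). RPL3 OE against control did not pass in footprints (-0.23, adjusted p = 0.207). The calls on Mylpf held in all 9 fits that left out 1 library.

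Of the thick-filament accessory genes, Mybph was close to the limit of measurement. Its mRNA had 5 to 37 counts per C2C12 library, which is 0.514 to 1.52 CPM, and its footprints 9 to 25 counts, or 1.97 to 6.20 CPM. All groups overlapped in both assays. The 95% intervals of its mRNA differences reached from -0.98 to 1.26 over the 3 comparisons, and changes inside these intervals were not resolved at this depth.

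Myom2, which encodes M-protein, was equally rare. Its mRNA was at 1.46, 1.88 and 1.48 CPM in control, 2.35, 1.64 and 1.63 CPM in RPL3 OE and 2.22, 1.03 and 1.54 CPM in RPL3L OE, and the groups overlapped. Its footprints numbered 9, 7 and 4 counts in control, 12, 15 and 12 in RPL3 OE and 20, 23 and 22 in RPL3L OE, which is 2.13, 2.17 and 1.26 CPM, 2.63, 2.51 and 3.40 CPM, and 4.03, 4.26 and 3.61 CPM. The groups did not overlap, in the order control, RPL3 OE, RPL3L OE. The rise in RPL3L OE against the control passed narrowly (1.03, SE 0.35, 95% CI 0.33 to 1.73, adjusted p = 0.0489). It did not pass without control replicate 1 (adjusted p = 0.0977), 2 (0.0842) or 3 (0.189), without RPL3L OE replicate 1 (0.0898), 2 (0.123) or 3 (0.0641), or without RPL3 OE replicate 1 (0.0517). RPL3L OE over RPL3 OE gave 0.50 (95% CI -0.10 to 1.10, adjusted p = 0.270).

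Read against the background of each comparison, in mRNA 0 of 6 members passed in RPL3L OE against control, where 9.26% of all tested transcripts did. By unadjusted p 2 did, Tnnt3 and Tnni2, and DESeq2 called 0 of the 4 members to which it gave an adjusted p. In RPL3 OE against control 2 members fell and 0 rose, with 16.1% of transcripts called, and in RPL3L OE against RPL3 OE 3 were higher and 0 lower, with 27% called. In footprints, 2 of 6 members rose in RPL3L OE against control (11.1% of transcripts called) and 3 were higher in RPL3L OE than in RPL3 OE (18.9% called). Against control, RPL3 OE footprints gave 0 members (10.6% called), 1 by unadjusted p (Mylpf) and 0 by DESeq2. The median log2 difference of the 6 members between the OE lines was 0.46 in mRNA and 0.55 in footprints, beside -0.01 and 0.01 over all transcripts tested. These shares are high in the background too, and with 6 members chosen by name nothing particular to them is read from the counts.

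TE separated mRNA from footprint changes less clearly. The Mylpf ratio of group mean CPM, footprints over mRNA, was 1.60 in control, 1.92 in RPL3 OE and 1.99 in RPL3L OE. Each CPM is relative to its own library total, so such a ratio is not a number of ribosomes per mRNA. For Myom2 the ratios were 1.15, 1.52 and 2.48, and for Tnni1 2.77, 2.07 and 2.72. Tnni2 stayed within 1.07 to 1.12, and Tnnt3 had 0.671, 0.856 and 0.757. By the interaction of group and assay, 0 of 6 members passed in RPL3L OE against control (2.08% of transcripts called), RPL3 OE against control (0.052%) or RPL3L OE against RPL3 OE (0.305%). By unadjusted p, 2, 0 and 0 members were under 0.05 in these comparisons, the 2 being Myom2 (1.03, 95% CI 0.08 to 1.98, adjusted p = 0.274) and Mylpf (0.30, 95% CI 0.02 to 0.57, adjusted p = 0.287), both in RPL3L OE against control. DESeq2 gave none of the members an adjusted p for TE in these cells. For Tnnt3 and Tnni2, TE differed by -0.18 (95% CI -0.90 to 0.54) and -0.04 (-0.53 to 0.45) between the OE lines, so the size of their footprint difference was close to that of their mRNA difference.

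**Figure D2:**
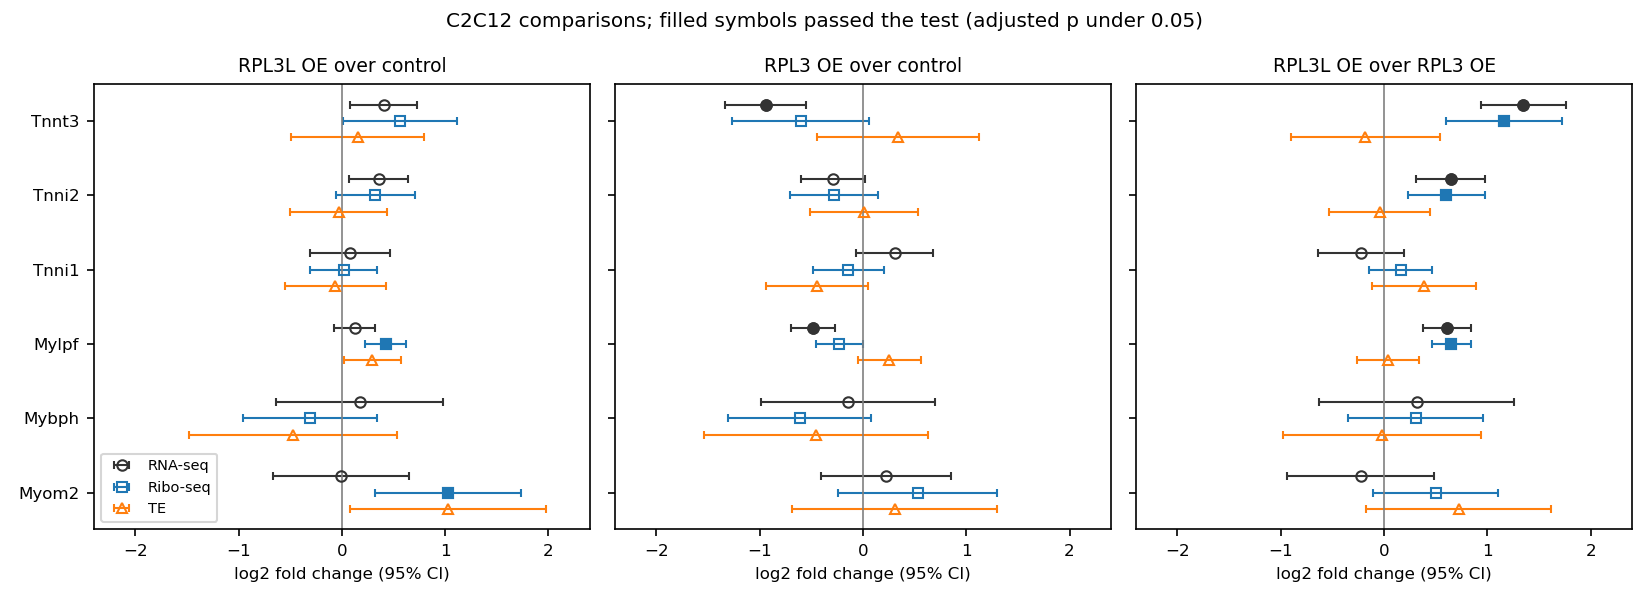
Log2 fold change of each member with its 95% CI (edgeR, n = 3 per group) in the 3 C2C12 comparisons, for RNA-seq (circles), Ribo-seq (squares) and TE (triangles), with filled symbols for adjusted p under 0.05. The 3 fast members are filled on the right side of zero in the panel of RPL3L OE over RPL3 OE, Tnnt3 farthest at 1.35 in mRNA, and no TE symbol is filled.

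The other genes of the sarcomere were listed in the same way, and 23 of 49 are in the table, whose matched transcripts are all on the plus strand. The absent genes were not measured here. Of the 7 with enough mRNA counts to test, 4 were higher in RPL3L OE than in RPL3 OE and 0 lower (27% of all transcripts called). These were Mylk2, the skeletal myosin light chain kinase that phosphorylates the product of Mylpf (2.88, SE 0.33), Tmod1, which caps thin filaments (0.80, SE 0.30), Tnnc1, troponin C of slow and cardiac muscle (0.51, SE 0.17), and Tnnt2 (0.19, SE 0.04). In RPL3 OE against control, with 16.1% of all transcripts called, 3 fell, namely Mylk2 (-2.30), Tmod1 (-1.47) and Tnnc1 (-0.61). There 2 rose, Tnnt2 (0.16) and the tropomyosin gene Tpm3 (0.10). In RPL3L OE against control, with 9.26% called, Tnnt2 rose (0.35) and Tmod1 fell (-0.67). Cardiac troponin T mRNA thus rose in RPL3 OE, where fast skeletal troponin T mRNA fell. In footprints, of 12 tested, the same 4 genes were higher in RPL3L OE than in RPL3 OE (18.9% of all transcripts called), and Tnnc1 differed by 0.97 (SE 0.20). Against control, 1 rose (Tnnt2, 0.46) and 4 fell in RPL3 OE footprints (10.6% called). In RPL3L OE footprints 1 rose (Tnnt2, 0.85) and 1 fell (11.1% called). In TE, 1 of 7 tested was called in RPL3L OE against control, Tnnt2 (0.50), with 2.08% of transcripts called, and 0 in the other C2C12 comparisons. The Tnnt2 footprint call in RPL3 OE was lost without control replicate 1 (adjusted p = 0.0758). The Tnnc1 mRNA call between the OE lines was lost without RPL3 OE replicate 1 (adjusted p = 0.0534) or 2 (0.107) or RPL3L OE replicate 2 (0.0813) or 3 (0.0952). That of Tmod1 was lost without RPL3 OE replicate 1 (0.0502) or 3 (0.349) or RPL3L OE replicate 2 (0.0857) or 3 (0.125), and with DESeq2 (0.0704). Tmod1 footprints between the OE lines no longer passed without RPL3 OE replicate 2 (0.0876) or 3 (0.0756) or RPL3L OE replicate 2 (0.239), or with DESeq2 (0.0941). Tmod1 mRNA against control in RPL3L OE passed in none of the fits without control replicate 1 (0.129) or 3 (0.155) or an RPL3L OE replicate (0.0849 to 0.171). The median over the tested genes of this list between the OE lines was 0.31 in mRNA and 0.21 in footprints. With so few genes tested, nothing particular to the list is read from its counts of calls.

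The myoblast markers moved in the direction of the fast members in RPL3 OE against control and between the OE lines. Their 3 genes in the table (Myod1, Des and Cdh15, of 6 listed) summed to 480 to 500 CPM of mRNA in control, 315 to 347 CPM in RPL3 OE and 563 to 579 CPM in RPL3L OE cultures, and in footprints to 908 to 930, 603 to 655 and 999 to 1028 CPM. All 3 genes fell in RPL3 OE against control and were higher in RPL3L OE than in RPL3 OE, in both assays. Of all transcripts tested, 16.1% and 27% were called in these comparisons in mRNA, and 10.6% and 18.9% in footprints. In RPL3L OE against control, 2 of the 3 markers rose in mRNA (9.26% of transcripts called) and 1 in footprints (11.1% called). Myod1 footprints were at 164 ± 8.81 CPM in RPL3L OE and 167 ± 3.17 CPM in control, without the rise seen for Mylpf. The 5 myotube markers in the table (of 10 listed) summed to 7.13 to 8.07, 5.14 to 6.28 and 6.59 to 7.11 CPM of mRNA. Myh8 was at 0 to 1 counts in the control cultures and at 0 counts in all cultures of both OE lines. None of the myotube markers tested passed in any C2C12 comparison. Of the adult fast skeletal fibre markers, 4 of 11 listed are in the table, and the only one with enough mRNA counts to test moved otherwise. This gene, Eno3, the muscle form of enolase, was at 371 to 393 CPM in control, 466 to 486 CPM in RPL3 OE and 405 to 425 CPM in RPL3L OE. It rose in RPL3 OE (0.32, SE 0.03) and in RPL3L OE (0.11, SE 0.03) against control and was lower in RPL3L OE than in RPL3 OE (-0.21, SE 0.03). In footprints, Eno3 rose in RPL3 OE against control (0.19, SE 0.05) and was lower in RPL3L OE than in RPL3 OE (-0.22, SE 0.05), and the myosins Myh1, Myh2 and Myh4 did not pass in any comparison. The part of the state of the cultures in the result was not tested.

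Across the 9 C2C12 RNA-seq libraries, the fast members also resembled each other. Pearson's r of log2 CPM was 0.883 for Tnnt3 with Tnni2, 0.884 for Tnnt3 with Mylpf and 0.823 for Tnni2 with Mylpf, against -0.611 for Tnnt3 with Tnni1. These are descriptions over 9 libraries that fall into 3 groups. Among 5728 genes, the pattern most like Tnnt3 was that of Ppp1r16a (0.973) and Prx (0.969), that most like Tnni2 Ube2f (0.978) and Synj2 (0.975), and that most like Mylpf Rtn2 (0.984) and Sirpa (0.982). For Tnni1 these were Znhit6 (0.930) and Mtmr10 (0.874), for Mybph Mnt (0.923) and Acbd5 (0.913), and for Myom2 Ttll3 (0.971) and Aars2 (0.930).

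Because Mylpf moved with the myoblast markers between the OE lines, its promoter is printed. It is from RefSeq on GRCm38.p6, chr7:127211358-127211657, plus strand, 250 bases before to 50 after the start. The capitals mark its only match to CANNTG on either strand, the E-box to which MyoD and related factors bind, here as CAGCTG.
Mylpf: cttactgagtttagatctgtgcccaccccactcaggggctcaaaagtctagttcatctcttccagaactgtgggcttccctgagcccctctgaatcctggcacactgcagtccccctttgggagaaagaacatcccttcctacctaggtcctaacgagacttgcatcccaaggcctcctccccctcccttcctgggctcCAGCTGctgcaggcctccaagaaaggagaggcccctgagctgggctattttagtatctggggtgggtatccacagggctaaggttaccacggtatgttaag
Of 32851 RefSeq promoters of this length, 72.3% hold CANNTG and 16.3% hold CAGCTG. Entries were found for 3 of the 6 members. The Mybph promoter (chr1:134193198-134193497) also holds 1 match, to the same bases as that of Mylpf, and the entries of Tnni1 hold 4 matches (chr1:135799171-135799470) and 2 (chr1:135799261-135799560). Both Tnni1 entries also include CAGCTG, so that all 3 members with an entry hold it. Tnni1 and Mybph passed in no C2C12 comparison. A match is a description of letters and not of a bound site.

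The heart placed the members in another order. Per kilobase of transcript, WT heart had Myom2 at 147 ± 40.8 CPM per kb (n = 4), then Tnnt3 (15.3 ± 4.93), Tnni2 (12.2 ± 2.88) and Mylpf (8.69 ± 6.24), which overlapped in turn, then Tnni1 (1.27 ± 0.226) and Mybph (0.214 ± 0.270). In footprints per kilobase of coding sequence Myom2 was again highest (396 ± 128), followed by Mylpf (26.2 ± 7.28) and by Tnni2, Tnni1 and Tnnt3 (10.3, 7.87 and 6.93), which overlapped. Mybph was at 0 to 5 counts in the heart mRNA libraries and 0 to 4 in the footprint libraries. Apart from Myom2, the members thus ran from 0.214 to 15.3 CPM per kb of mRNA in the heart, where control myoblasts had 0.389 to 23.1. Mybph had too few heart counts to be tested in any heart comparison.

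Between WT heart and control C2C12 cells, Myom2 differed most. In the plain CPM of each library it was at 894, 947, 627 and 517 in WT heart mRNA against 1.46 to 1.88 in control cells, a log2 fold change of 9.62 (SE 0.28, adjusted p = 4.57e-18), and its footprints differed by 10.26 (SE 0.29, adjusted p = 1.51e-19). Of the 5 members tested in mRNA, Tnnt3 (2.01, SE 0.28) and Tnni2 (1.03, SE 0.26) were higher in the heart as well, Tnni1 was lower (-0.95, SE 0.38, adjusted p = 0.0268), and Mylpf did not pass (-0.71, adjusted p = 0.0851). In footprints 1 of 5 was higher, Myom2, and 2 were lower, Tnni1 (-1.08, SE 0.29) and Mylpf (-0.68, SE 0.16). Tnnt3 (0.69, adjusted p = 0.159) and Tnni2 (-0.12, adjusted p = 0.699) did not pass in footprints. TE was lower in the heart for Tnnt3 (-1.39, 95% CI -2.54 to -0.24, adjusted p = 0.0414) and Tnni2 (-1.22, 95% CI -2.07 to -0.38, adjusted p = 0.0146), 2 of 5 members. In these comparisons 82.6% (mRNA), 82.9% (footprints) and 49% (TE) of transcripts were called.

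These heart against C2C12 values rest on the scaling. The TMM factors added 0.74 to every mRNA fold change and 0.43 to every footprint fold change relative to library totals. With library totals, Tnni2 mRNA no longer passed (0.29, adjusted p = 0.252), Mylpf mRNA did (-1.45, adjusted p = 0.00101), and neither Tnnt3 (-0.999, adjusted p = 0.124) nor Tnni2 (-0.84, adjusted p = 0.0693) passed in TE. The Tnni1 mRNA call was lost without WT heart replicate 1 (adjusted p = 0.0504) or 4 (0.104) or control replicate 2 (0.0607) or 3 (0.0720). The Tnnt3 TE call was lost without WT heart replicate 1 (adjusted p = 0.164), 3 (0.0505) or 4 (0.0581) or control replicate 1 (0.0716), 2 (0.0722) or 3 (0.145). Without WT heart replicate 1, Tnnt3 footprints (1.00, adjusted p = 0.0462) and Mylpf mRNA (-1.04, adjusted p = 0.0144) passed. Tissue and laboratory handling differ together between a heart and a culture and cannot be told apart.

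**Figure D3:**
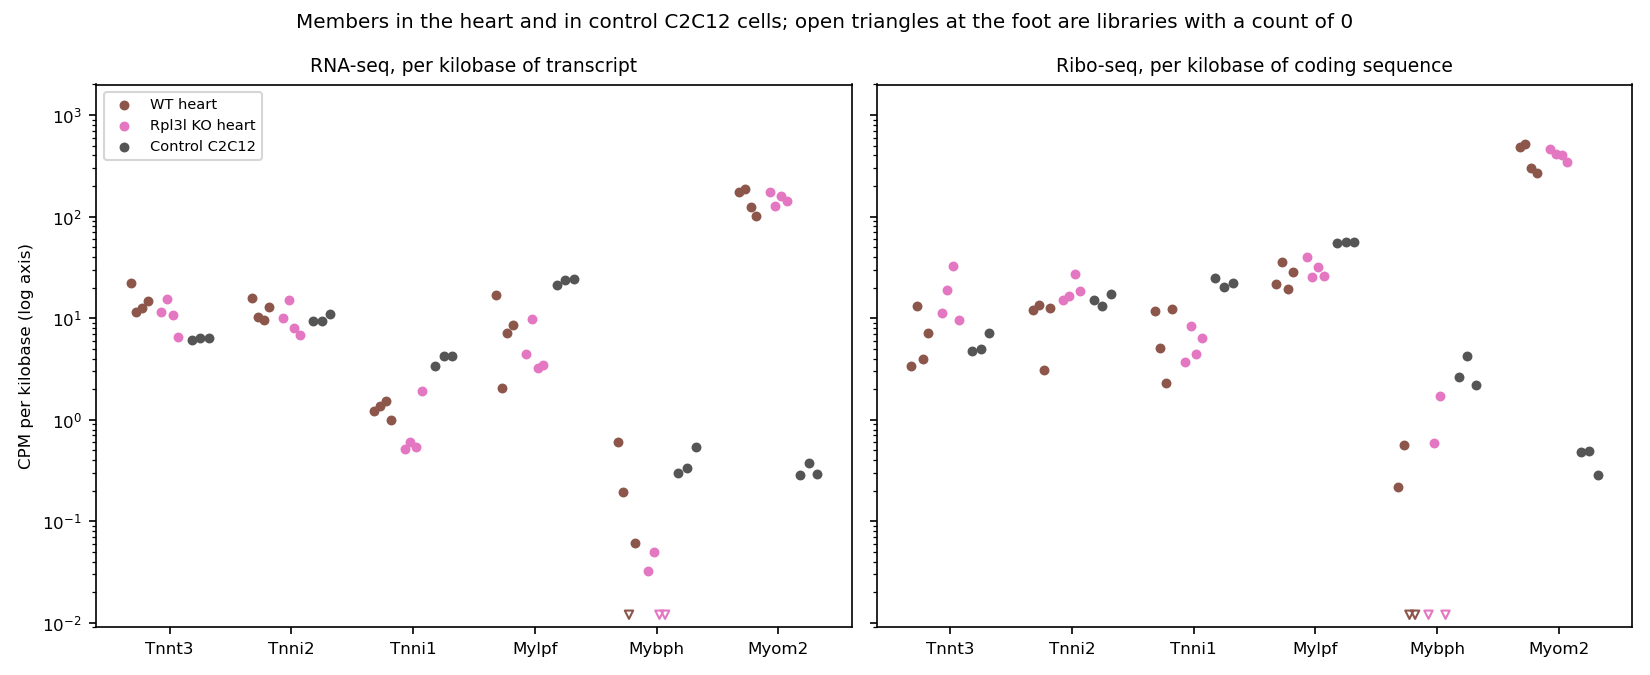
Members in CPM per kilobase on a log axis, RNA-seq per kilobase of transcript on the left and Ribo-seq per kilobase of coding sequence on the right, for WT heart and Rpl3l-/- heart (n = 4 each) and control C2C12 (n = 3). Each point is a library, and open triangles at the foot mark a count of 0, which occurs for Mybph in the heart; Myom2 is the member whose heart and C2C12 points lie farthest apart.

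In the Rpl3l-/- heart, 0 of the 5 members tested in mRNA passed, where 0.013% of transcripts did. By unadjusted p 0 did, and DESeq2 called 0 of the 3 members to which it gave an adjusted p. Tnnt3 mRNA was at 22.5, 11.5, 12.6 and 14.8 CPM in WT and 11.7, 15.6, 10.8 and 6.59 CPM in Rpl3l-/- heart. Tnni2 mRNA was at 12.2, 7.92, 7.36 and 9.97 CPM in WT and 7.72, 11.6, 6.20 and 5.21 CPM in Rpl3l-/- heart. Both overlapped between genotypes, with intervals of -0.99 to 0.16 for Tnnt3 and -0.85 to 0.36 for Tnni2. Mylpf mRNA, at 1.58 to 13.1 CPM in WT and 2.50 to 7.56 CPM in Rpl3l-/- heart, overlapped as well (-0.64, 95% CI -1.66 to 0.38). Tnni1 mRNA, from 5 to 24 counts per library, was at 1.39, 1.58, 1.74 and 1.14 CPM in WT and 0.594, 0.693, 0.624 and 2.20 CPM in Rpl3l-/- heart, where replicate 4 lay above all WT libraries and the other 3 below them (-0.52, 95% CI -1.73 to 0.69). Without the Rpl3l-/- libraries numbered 2 and 3, the mRNA differences were -0.73 for Tnnt3 (unadjusted p = 0.0337), -0.53 for Tnni2, -1.10 for Mylpf and -0.07 for Tnni1, and none passed (adjusted p = 0.9997 for each).

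The footprints of the fast troponins were higher in the Rpl3l-/- heart by mean, without passing. Tnnt3 footprints were at 2.51, 9.80, 2.98 and 5.34 CPM in WT and 8.31, 14.2, 24.3 and 7.14 CPM in Rpl3l-/- heart, with overlap through WT replicate 2. Tnni2 footprints were at 6.58, 7.35, 1.70 and 6.94 CPM in WT and 8.31, 9.04, 14.9 and 10.1 CPM in Rpl3l-/- heart, without overlap. The fitted differences were 1.44 for Tnnt3 (SE 0.44, 95% CI 0.50 to 2.38, adjusted p = 0.127) and 0.92 for Tnni2 (SE 0.34, 95% CI 0.19 to 1.64, adjusted p = 0.200). In this comparison 0.677% of transcripts passed, and 0 of the 4 members tested (2 by unadjusted p). DESeq2 called 0 but gave only 1 of these members an adjusted p. In TE the same 2 members had unadjusted p under 0.05, with 1.86 (95% CI 0.66 to 3.05, adjusted p = 0.504) for Tnnt3 and 1.18 (95% CI 0.14 to 2.21, adjusted p = 0.740) for Tnni2. In TE 0 of 4 members passed, with 0% of transcripts called. DESeq2 called 0 there too, with an adjusted p for only 1 of the members.

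These values rest on few counts and on single libraries. Without the Rpl3l-/- libraries numbered 2 and 3 the footprint differences were 0.66 for Tnnt3 (adjusted p = 0.599) and 0.73 for Tnni2 (adjusted p = 0.486), and those in TE 1.40 and 1.28. For Mylpf, whose footprints differed by 0.28 and whose TE by 0.91 with all libraries (adjusted p = 0.577 and 0.830), these became 0.39 and 1.48 (unadjusted p = 0.189 and 0.0381, adjusted p = 0.587 and 0.938). Without Rpl3l-/- replicate 3 alone, Tnnt3 footprints differed by 1.04 (adjusted p = 0.215), and without WT replicate 3, Tnni2 footprints differed by 0.62 (adjusted p = 0.361). In Rpl3l-/- hearts both troponins were highest in RNA-seq library 2 and in Ribo-seq library 3, which had 0 counts of Bpifa1. The 4 fast skeletal fibre markers in the table (Myh1, Myh2, Myh4 and Eno3, of 11 listed) summed to 2217 to 2484 CPM in WT and 2256 to 2863 CPM in Rpl3l-/- heart mRNA, and to 2595 to 2959 and 2850 to 3264 CPM in footprints. Most of these sums is Eno3, at 2294 ± 121 CPM of mRNA in WT and 2553 ± 263 CPM in Rpl3l-/- heart. The myosin mRNAs were lower by mean in Rpl3l-/- heart, with Myh4 at 10.3 ± 4.24 against 5.48 ± 2.47 CPM, Myh1 at 1.70 ± 1.38 against 0.523 ± 0.476 CPM and Myh2 at 0.962 ± 0.382 against 0.427 ± 0.265 CPM, given as WT against Rpl3l-/-. Of these, Myh4 had enough counts to test and did not pass (-0.86, adjusted p = 0.999). Myosin footprints, at group means from 228 to 361 CPM over these low mRNA levels, carry the same concern as those of Myh3. None of the 4 markers passed between genotypes in footprints (0.13 to 0.33), and the markers' part in the result was not tested.

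**Figure D4:**
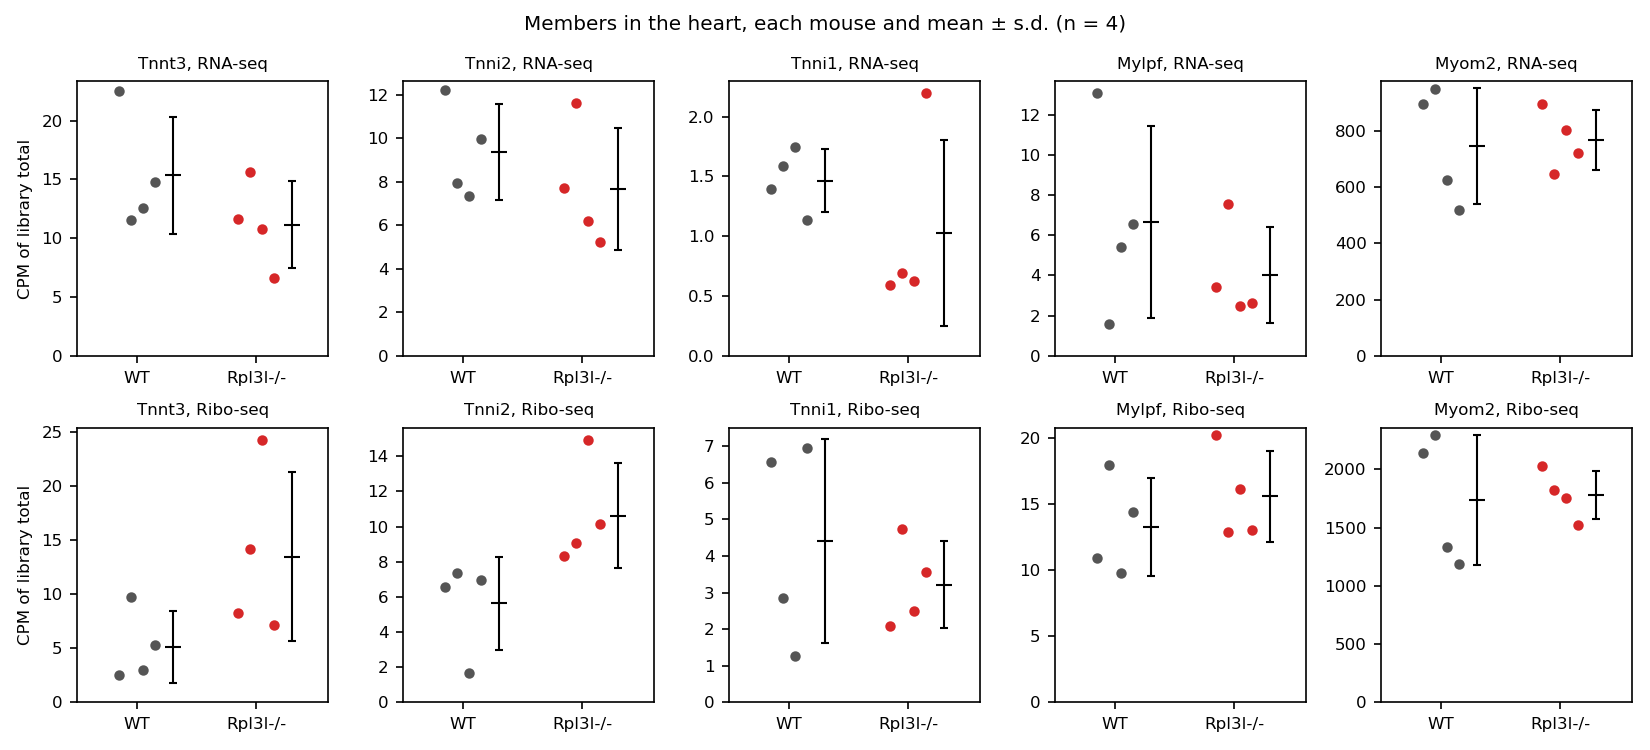
Tnnt3, Tnni2, Tnni1, Mylpf and Myom2 in CPM of the library total (linear axes from 0) in WT and Rpl3l-/- heart, RNA-seq above and Ribo-seq below, with each library as a point and the mean ± s.d. of n = 4 beside it. Genotypes overlap in every panel except Tnni2 Ribo-seq, where the WT libraries reach 7.35 CPM and the Rpl3l-/- libraries start at 8.31 CPM.

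Myom2, the only member abundant in the heart, had close group means in mRNA, footprints and disome footprints. Its mRNA in Rpl3l-/- heart was at 895, 647, 802 and 721 CPM, against the WT values above (0.03, 95% CI -0.35 to 0.42, adjusted p = 0.999). Its footprints were at 2139, 2299, 1331 and 1188 CPM in WT and 2027, 1820.5, 1756 and 1519.6 CPM in Rpl3l-/- heart (0.07, 95% CI -0.29 to 0.44, adjusted p = 0.875). Without the Rpl3l-/- libraries numbered 2 and 3 the differences were 0.10 in mRNA and 0.07 in footprints. Genotypes overlapped in both, and the ratio of footprints to mRNA was 2.33 in WT and 2.32 in Rpl3l-/- heart. Disome footprints, protected by a pair of adjoining ribosomes, were at 1820 ± 760 CPM in WT and 2003 ± 506 CPM in Rpl3l-/- heart (exact permutation test, two-sided p = 0.686, where 0.0286 is the smallest the design allows). The other members had at most 3 disome counts in any library. The disome libraries, each the sum of 2 runs, held only 40786 to 149783 counts in WT and 39016 to 175747 in Rpl3l-/- heart. At that depth 3 counts are 17.1 to 76.9 CPM, so the disomes of these members were not resolved.

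Myom2 was also the 1 member with a peak of N6-methyladenosine (m6A), an mRNA modification, among 3181 peaks called in the heart. The 51-base peak, chr8:15084442-15084492 on GRCm38, starts before exon 12, and its 32 bases in that exon, chr8:15084461-15084492, are coding. They are printed because they hold adjoining matches to the m6A consensus motif, in which a purine and the bases AC stand between a base other than C before and a base other than G after. The matches GAACT and TAACA overlap by 1 base and stand in capitals.
Myom2: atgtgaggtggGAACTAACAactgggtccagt
Of 2108920 adjoining 32-base windows over the transcripts in the table, 45.6% hold the motif. The peak had 27, 16 and 18 counts in WT and 30, 24 and 40 counts in Rpl3l-/- heart, which is 63.5 ± 23.4 and 84.7 ± 12.9 CPM of the counts in all peaks (n = 3). The genotypes overlapped (exact permutation test, two-sided p = 0.3, where 0.1 is the smallest the design allows).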

How the data were processed

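The authors deposited raw counts per transcript for mRNA, ribosome footprint and disome footprint libraries. Per the paper and the submitters' processing notes, reads were trimmed with cutadapt, mapped with STAR to GRCm38.p6 transcripts and mm10 with multiple mappings allowed, and counted with featureCounts. For their versions and the strand option, no value is given in the sources used here. For m6A-seq the authors deposited counts and TPM per peak, of which the counts were used.

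The table lists all transcripts on 2 equal lines, and 1 was read. Of 23877 transcripts, 23662 matched GENCODE M21, all on the plus strand. Counts were fitted with edgeR 4.0.16 (quasi-likelihood test, TMM) in R 4.3.3, keeping transcripts that averaged 10 counts or more in every assay fitted, with Benjamini-Hochberg adjustment over all of them and a threshold of 0.05. TE is the interaction of group and assay. The 3 C2C12 groups share a fit, and heart against C2C12 used all 5 groups. Levels are CPM of library totals. The paper counts the heart replicates as mice and the C2C12 replicates as independent biological samples. Scripts were tested on simulated data. Alternatives were DESeq2 1.42.0, library totals, other count minimums, 1 transcript per gene, another choice of transcript, only the 2 groups compared, a replicate block, leaving out each library and, chosen after seeing the data, leaving out 2 Rpl3l-/- hearts. Genes named are the 6 members, other sarcomere genes called between the OE lines and the 2 genes most like each member. Bpifa1 and Myh3 were added after their values were seen, and Tpm3 and the marker genes come from their lists. Members and lists were chosen with earlier results of these data known.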

Additional observations from a re-analysis of the deposited data

Results flagged for a closer look

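In 2 of the 24 groups of 4 heart libraries examined over the members, 1 library lay apart from the other 3 by Dixon's test at the 95% level, which chance alone gives in about 1 group of 20. Tnni2 footprints in WT heart replicate 3 were at 1.70 CPM, from 4 counts, below 6.58 to 7.35 CPM in the other 3 WT libraries (gap over range 0.863). This low library enters the comparison of Tnni2 footprints between genotypes, which fell from 0.92 to 0.62 on the log2 scale without it. Tnni1 mRNA in Rpl3l-/- heart replicate 4 was at 2.20 CPM, from 24 counts, above 0.594 to 0.693 CPM in the other 3 (gap over range 0.938).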

How the results depend on the processing

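Of 1550 recomputed differences of named genes, 1449 kept their direction and their side of the threshold, 46 changed sign, 52 lost a call and 3 gained one. None of the sign changes was of a called difference, and the cause of the changes was not tested unless named. Depth limits Mybph and Myom2 in C2C12 cells and the 5 members other than Myom2 in the heart.

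Counts of members called moved as follows. In Ribo-seq, RPL3L OE against control, 2 became 1 (Mylpf) without a filter beyond a total of 10 counts, at a mean count of at least 50 (where Myom2 is not tested), with DESeq2 (which gave Myom2 no adjusted p) and with the replicate block, and ranged from 1 to 2 when 1 library was left out. In Ribo-seq, RPL3L OE against RPL3 OE, 3 became 1 at a mean count of at least 50, which fewer members reach. In TE, WT heart against control C2C12, 2 became 1 without the filter and with 1 transcript per gene, and 0 at a mean count of at least 50 and with library totals, and ranged from 1 to 2 when 1 library was left out.

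Same-numbered samples of different C2C12 groups had correlations of their deviations between -0.0552 and 0.0698, and those of the hearts between -0.519 and 0.595, so the samples share only a number. With the number as a replicate block, Myom2 footprints in RPL3L OE against control (adjusted p = 0.0527) and Tmod1 mRNA in the same comparison (adjusted p = 0.0595) lost their calls, Tnni2 TE in RPL3 OE against control turned to -0.013 and Mybph TE between the OE lines to 0.079, and no other call changed. RNA-seq and Ribo-seq of 1 number correlated at -0.0221 to 0.145 in C2C12 cells, where 8 of 9 fitted best with their own number. In the heart they correlated at -0.771 to 0.781, and 6 of 8 fitted best with their own number. The negative values were those of Rpl3l-/- numbers 2 (-0.747) and 3 (-0.771). Rpl3l-/- numbers 1 and 4 were at 0.781 and 0.678, and WT hearts at 0.301 to 0.375. An exchange of numbers 2 and 3 between the assays was not tested. In TE, including WT heart against control C2C12, the block was each number within its group, which joins its RNA-seq and Ribo-seq libraries. For Rpl3l-/- numbers 2 and 3 it joins libraries whose deviations correlated negatively, which limits the blocked fits of heart TE. The mRNA and footprint comparisons of WT heart with control C2C12 had no block, because heart and C2C12 libraries are different experiments.

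Further sign changes, all near zero or in uncalled differences, were Myom2 mRNA in RPL3L OE against control (0.0018 with library totals, 0.00073 with 1 transcript per gene) and Myom2 TE in the Rpl3l-/- heart (-0.0066 with library totals, -0.020 without the hearts numbered 2 and 3). In TE of WT heart against control C2C12 they were Mylpf (0.0038 without the filter, 0.010 at a mean count of at least 50, 0.36 with library totals, 0.051 with 1 transcript per gene) and Tnni1 (0.19 with library totals).

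Leaving out 1 library at a time changed the sign of these uncalled differences, given by their range. In TE, RPL3L OE against control, they were Tnnt3 (-0.046 to 0.36), Tnni2 (-0.10 to 0.016) and Tnni1 (-0.15 to 0.10). In TE, RPL3 OE against control, they were Tnnt3 (-0.053 to 0.74) and Tnni2 (-0.073 to 0.12). In TE, RPL3L OE against RPL3 OE, they were Tnnt3 (-0.58 to 0.21), Tnni2 (-0.15 to 0.041), Mylpf (-0.041 to 0.10) and Mybph (-0.24 to 0.29). In mRNA, RPL3L OE against control, they were Tnni1 (-0.021 to 0.17) and Myom2 (-0.29 to 0.22), RPL3L OE against RPL3 OE Mybph (-0.030 to 0.91) and Myom2 (-0.51 to 0.00072), and RPL3 OE against control Mybph (-0.74 to 0.20). In footprints, RPL3L OE against control, they were Tnni1 (-0.043 to 0.10) and Mybph (-0.53 to 0.0032). In the Rpl3l-/- heart they were Myom2 mRNA (-0.11 to 0.20) and footprints (-0.074 to 0.24). In WT heart against control C2C12 they were Tnni2 footprints (-0.26 to 0.17), Tnni1 TE (-0.61 to 0.11) and Mylpf TE (-0.54 to 0.35).

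With 1 transcript per gene, which tests fewer transcripts, the counts of calls over all of them fell in C2C12 mRNA (RPL3L OE against control from 1336 to 589, RPL3 OE against control from 2321 to 1039, between the OE lines from 3899 to 1614), in footprints (RPL3 OE against control from 1464 to 694, between the OE lines from 2603 to 1107) and in WT heart against control C2C12 (13232 to 5554 in mRNA, 11986 to 5121 in footprints, 6972 to 2989 in TE). Other counts that moved by over 1.5 times were footprints in RPL3L OE against control (1528 to 675 with DESeq2), TE in that comparison (280, from 66 to 409), TE in RPL3 OE against control (7, from 1 to 74), TE between the OE lines (41, from 8 to 69), heart mRNA (2, from 1 to 11), heart footprints (86, from 17 to 190) and heart TE (0, up to 20 with DESeq2).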
